A study of Homo sapiens with 6 samples.

Results

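The genes of the first, committing steps of glycolysis were examined after exposure of MDA-MB-231 cells to the peptide PDBAG1. MDA-MB-231 is an established human line of triple-negative breast cancer. The analysis covered 9 genes, taken by symbol from the 17631 in the data: the hexokinases HK1 and HK2, the isomerase GPI, the phosphofructokinase-1 (PFK1) subunits PFKL, PFKM and PFKP, and the bifunctional enzymes PFKFB2, PFKFB3 and PFKFB4. The study treated cells for 24 h with vehicle or with 30 µM PDBAG1 and sequenced the RNA of 3 libraries per group. PDBAG1 is a stretch of the enzyme GPD1 joined to a cell-penetrating peptide. The authors describe it as binding the mitochondrial protein C1QBP and promoting its ubiquitin-dependent degradation. No library of cells given the cell-penetrating peptide alone was among the 6. All 6 libraries came from the same line grown in DMEM with serum, although the labels also call the source breast cancer tissue. What the vehicle was is not given in the sources used here. The labels do not say whether the 3 libraries of a group were separate cultures. The p-values therefore rest on the spread between libraries, which the test of single genes pools in part over all genes tested.

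Hexokinase traps glucose in the cell as glucose 6-phosphate, GPI converts that to fructose 6-phosphate, and PFK1 adds a further phosphate in the step that commits the sugar to glycolysis. The PFKFB enzymes make and break fructose 2,6-bisphosphate, the strongest allosteric activator of PFK1, so that they set the pace of the PFK1 step without being part of the pathway itself. In tumour cells HK2 and PFKFB3 are well known as inducible, growth-associated isozymes, and several of these genes are textbook targets of the hypoxia-inducible factor HIF-1.

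Since several of these genes are known HIF-1 targets, the sequence before the start sites was searched for the core of the hypoxia response element, written as ACGTG or GCGTG and read on both strands, where the opposite strand shows CACGT or CACGC. RefSeq windows (GRCh38.p14) of the 250 bases before a start site were held for 8 of the 9 genes, 25 windows in all, and PFKFB2 was not matched. The following 4 windows are shown because they end at the start of the GENCODE canonical transcript and belong to the genes with the largest change in the hexokinase, PFK1 and PFKFB families and to PFKFB3. Each is written 5′ to 3′ in the direction of the gene, with matches in capitals.
HK2, chr2:74833877-74834126, plus strand: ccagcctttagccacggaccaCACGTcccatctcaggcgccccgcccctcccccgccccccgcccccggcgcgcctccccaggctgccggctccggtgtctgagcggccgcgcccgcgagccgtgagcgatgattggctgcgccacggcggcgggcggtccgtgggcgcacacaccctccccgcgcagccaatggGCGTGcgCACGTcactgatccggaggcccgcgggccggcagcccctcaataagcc
PFKL, chr21:44299803-44300052, plus strand: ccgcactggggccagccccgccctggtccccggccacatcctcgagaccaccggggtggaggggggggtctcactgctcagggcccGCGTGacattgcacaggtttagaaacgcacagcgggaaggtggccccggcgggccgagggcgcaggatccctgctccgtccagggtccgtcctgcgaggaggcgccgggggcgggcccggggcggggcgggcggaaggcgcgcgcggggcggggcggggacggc
PFKFB3, chr10:6202682-6202931, plus strand: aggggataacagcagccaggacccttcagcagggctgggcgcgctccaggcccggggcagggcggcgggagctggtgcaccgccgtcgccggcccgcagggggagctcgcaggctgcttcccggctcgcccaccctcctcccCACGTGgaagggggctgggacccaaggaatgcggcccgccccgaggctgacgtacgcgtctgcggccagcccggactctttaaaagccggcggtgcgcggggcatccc
PFKFB4, chr3:48556804-48557053, minus strand: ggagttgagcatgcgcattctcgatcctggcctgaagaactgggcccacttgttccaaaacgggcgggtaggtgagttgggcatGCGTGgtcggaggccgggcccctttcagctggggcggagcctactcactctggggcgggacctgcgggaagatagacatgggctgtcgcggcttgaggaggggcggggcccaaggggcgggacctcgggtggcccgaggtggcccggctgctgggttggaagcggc

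The HK2 window held 3 matches, the PFKFB3 window held the palindrome CACGTG, which counts once on each strand, and the PFKL and PFKFB4 windows held 1 match each. A second RefSeq start of HK2, 1043 bases downstream, had a window with 6 matches at 4 sites, 2 of them CACGTG. Matches are common in such windows, and 54.8% of the 14832 windows of genes expressed in these cells held at least 1, against 11 of the 25 windows of the members. CACGTG was in 8.14% of the windows of expressed genes and in 2 of the 25. Of the 8 windows nearest the canonical start, 1 per gene, 6 held a match and 1 held CACGTG, while those of PFKM and PFKP held none. No such count per gene was made for the other expressed genes. The letters therefore describe the windows and were not used to explain any value.

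Levels are given as TPM, the relative abundance of transcripts, which is scaled by transcript length and can be compared between genes. All 9 genes passed the filter on low values, which asked for 3 or more libraries at a TPM of 1 or above, as did 12582 genes in all. Changes were put on a log2(TPM + 1) scale and fitted with limma over these 12582 genes, with Benjamini-Hochberg adjustment of p. A gene was called when its adjusted p was under 0.05 and its change at least 1.5-fold. By that rule HK1, HK2, PFKFB3 and PFKFB4 rose with PDBAG1, 4 of the 9 genes against 2.86% of all genes tested. None of the 9 fell by that rule, and only 60 of all 12582 genes tested did. Without the fold limit, 7 of the 9 were higher, against 21.7% of all genes tested, and none lower, against 15.9%. In the same 7 genes every PDBAG1 library lay above every vehicle library, a pattern found in 27.2% of the genes tested. The median log2 fold change was 0.48 over the 9 genes and 0.03 over all genes. In bulk RNA, more cells of a kind and more RNA per cell cannot be told apart.

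**Figure D1:**
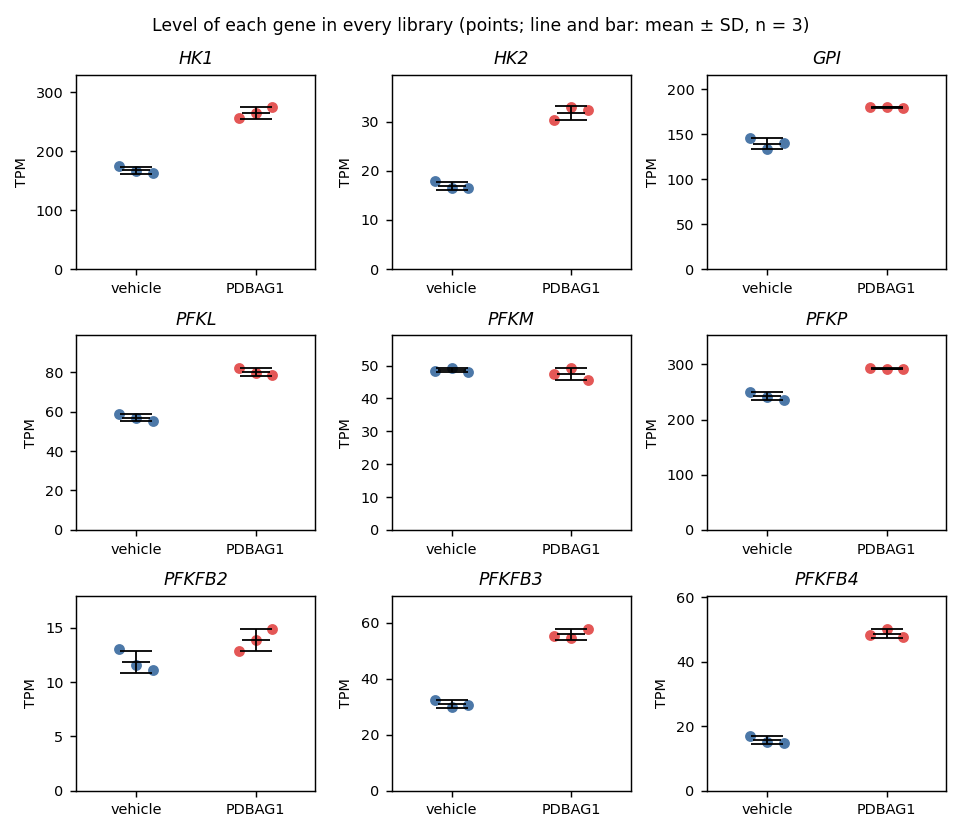
TPM of each of the 9 genes (y axes, from 0) in the 3 vehicle and 3 PDBAG1 libraries (x axes), with the mean and SD (n = 3) as line and bar. The groups are apart in 7 panels and overlap for PFKM and PFKFB2.

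In vehicle-treated cells PFKP was the most abundant of the 9 genes, with 243 TPM on average, followed by HK1 with 168 and GPI with 140. PFKL and PFKM followed with 57.0 and 48.7 TPM, PFKFB3 with 31.0, HK2 with 17.0, PFKFB4 with 15.7 and PFKFB2 with 11.9. The ranges of HK2 and PFKFB4 overlapped, although HK2 was the higher of the pair within each vehicle library. All other neighbours in this order were apart. With PDBAG1 the first 4 and the last kept their places, while PFKFB3 at 55.7 TPM lay above PFKM at 47.4 TPM in every library. The ranges of PFKFB4, with a mean of 48.7 TPM, and PFKM overlapped, although PFKFB4 was the higher of the pair within each PDBAG1 library. PFKFB4 was thus below HK2 within each vehicle library and above it in every PDBAG1 library.

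HK1, the ubiquitous hexokinase that docks on the outer mitochondrial membrane, was read at 174.61, 165.63 and 162.51 TPM in the vehicle libraries and at 255.79, 263.80 and 274.91 TPM with PDBAG1. Its lowest treated value was well above its highest vehicle value. The mean rose from 168 ± 6.28 to 265 ± 9.60 TPM (SD, 3 libraries each), with a log2 fold change of 0.66 (standard error, SE, 0.04, adjusted p = 8.36e-08 in limma). The 95% interval of 0.57 to 0.75 reached slightly below the 1.5-fold limit, and with trends of transcript length and GC content removed, a setting chosen after the data were seen, HK1 fell short of that limit at 0.58.

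HK2, the second mitochondria-bound hexokinase and the one most often linked to rapidly growing tumours, was at 17.89, 16.41 and 16.58 TPM with vehicle and at 30.28, 33.01 and 32.29 TPM with PDBAG1. The groups did not overlap. Its log2 fold change of 0.87 (SE 0.06, adjusted p = 2.42e-07 in limma) was the largest of the hexokinases. HK2 remained a minor transcript of its family. HK1 was 9.89 ± 0.18 times as abundant as HK2 with vehicle and 8.32 ± 0.28 times with PDBAG1 (SD, 3 libraries each).

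Summed over HK1 and HK2, hexokinase TPM went from 185 ± 7.05 to 297 ± 10.6 (SD, 3 libraries each), a log2 difference of 0.69. HK1 supplied 86.7% of the added TPM and HK2 13.3%. The HK2 share of the sum was 9.29%, 9.01% and 9.26% in the vehicle libraries and 10.6%, 11.1% and 10.5% with PDBAG1, 1.55 percentage points higher with no overlap. An exact permutation test of 3 libraries against 3 cannot give a two-sided p below 0.1, and that smallest value, 0.1, was found for the hexokinase sum and for the HK2 share. HKDC1, which lies just upstream of HK1 on chromosome 10, was at 3.24 ± 0.13 and 3.62 ± 0.40 TPM (SD, 3 libraries each; log2 fold change 0.12, adjusted p = 0.366 in limma). HK3 was listed at 0.05 TPM or less in every library.

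GPI, the isomerase between the hexokinase and PFK1 steps, has no isozyme in the genome. It was at 145.14, 133.72 and 139.75 TPM with vehicle and at 180.17, 180.12 and 178.55 TPM with PDBAG1. The treated libraries were closely grouped and all above the vehicle libraries. The log2 fold change was 0.36 (SE 0.04, adjusted p = 1.76e-05 in limma), below the 1.5-fold limit. The change was smaller than that of HK1, and the ratio of GPI to HK1 went from 0.833 ± 0.026 to 0.679 ± 0.028 (SD, 3 libraries each; exact permutation p = 0.1, the smallest possible). GPI shares 6099 bases on the same strand with another protein-coding gene, which had no values in the data. How reads in that stretch were assigned was not tested.

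PFK1 is a tetramer that can mix its platelet (PFKP), liver (PFKL) and muscle (PFKM) subunits. Only RNA was measured in these libraries, so shares of TPM do not give the make-up of the enzymes. PFKP, the subunit with the most TPM, was at 250.81, 241.71 and 235.94 TPM with vehicle and at 293.81, 290.79 and 292.35 TPM with PDBAG1. That was a modest rise without overlap (log2 fold change 0.27, SE 0.04, adjusted p = 9.72e-05 in limma). PFKL was at 58.95, 56.61 and 55.36 TPM with vehicle and at 82.21, 79.43 and 78.36 TPM with PDBAG1. It rose most of the 3 subunits, with a log2 fold change of 0.48 (SE 0.05, adjusted p = 4.20e-06 in limma), and did not reach 1.5-fold. PFKP shares 3153 bases on the same strand with a long non-coding RNA gene that had no values in the data.

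PFKM, the muscle subunit, was at 48.49, 49.32 and 48.17 TPM with vehicle and at 47.35, 49.30 and 45.63 TPM with PDBAG1, and the groups overlapped. Its log2 fold change of -0.04 (adjusted p = 0.597 in limma) had a 95% interval of -0.15 to 0.07, whose upper end lay below the estimates for PFKP and PFKL. The ratio of PFKL to PFKM went from 1.17 ± 0.04 to 1.69 ± 0.07 (SD, 3 libraries each; exact permutation p = 0.1, the smallest possible). PFKM overlaps SENP1 on the opposite strand by 941 bases, and SENP1 was at 14.6 ± 0.64 and 13.9 ± 0.91 TPM (SD, 3 libraries each). Whether the library kit kept strand is not given in the sources used here.

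The PFK1 sum went from 348 ± 9.42 to 420 ± 3.52 TPM (SD, 3 libraries each), a log2 difference of 0.27, the smallest of the 3 families. PFKP supplied 69.4% of the added TPM and PFKL 32.3%, while the contribution of PFKM was -1.73%. The PFKP share of the pool differed by less than its spread, at 69.7% ± 0.29 with vehicle and 69.6% ± 0.50 with PDBAG1 (SD, 3 libraries each; exact permutation p = 0.9). The PFKL share was 2.71 percentage points higher with PDBAG1, and the PFKM share differed by -2.67 points. The PFKL share was 16.5%, 16.3% and 16.3% with vehicle and 19.4%, 18.9% and 18.8% with PDBAG1. The PFKM share was 13.5%, 14.2% and 14.2% with vehicle and 11.2%, 11.8% and 11.0% with PDBAG1. Neither share overlapped between the groups (exact permutation p = 0.1 for both, the smallest possible). The shares are parts of the same sum, so these are not separate results.

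**Figure D2:**
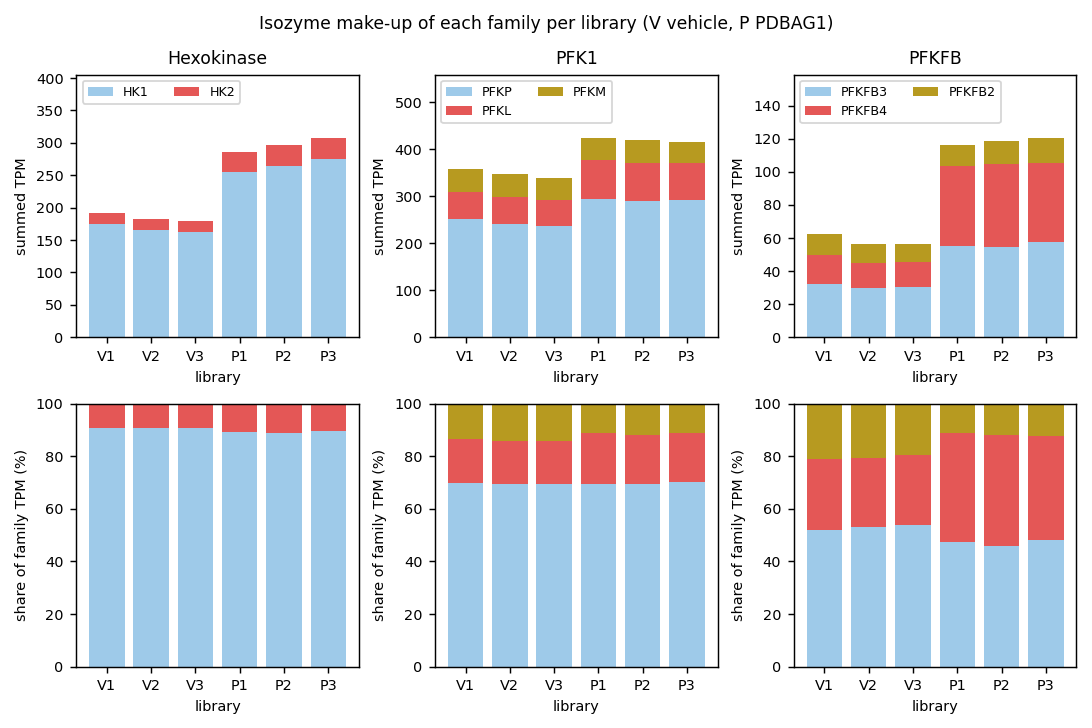
Upper row: summed TPM of the hexokinase, PFK1 and PFKFB genes in each library (V, vehicle; P, PDBAG1). Lower row: each gene's percentage of its family's TPM, where the PFKFB4 part grows from 26.4% to 27.2% in the vehicle libraries to 39.6% to 42.4% with PDBAG1 and the PFKP part lies between 69.3% and 70.2% in all 6.

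Of the 3 families, PFKFB had the largest log2 difference in its sum and the largest differences in its shares, although the TPM it added, 59.8, was the smallest, against 71.3 for PFK1 and 112 for hexokinase. PFKFB4, a hypoxia-inducible isozyme first known from testis, was at 17.01, 15.02 and 14.94 TPM with vehicle and at 48.22, 50.23 and 47.64 TPM with PDBAG1. The groups were far apart, and the mean rose 3.11-fold. The log2 fold change of 1.58 (SE 0.06, adjusted p = 6.66e-10 in limma) ranked PFKFB4 at 14 among the 12582 genes tested, in order of rise. PFKFB4 shares 298 bases on the same strand with UCN2, which encodes the peptide urocortin 2. UCN2 itself went from 11.1 ± 0.86 to 19.7 ± 0.48 TPM (SD, 3 libraries each; log2 fold change 0.77, adjusted p = 2.80e-06 in limma), and how reads in the shared stretch were divided was not tested.

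PFKFB3, whose kinase activity far exceeds its phosphatase activity, was at 32.46, 29.94 and 30.59 TPM with vehicle and at 55.05, 54.35 and 57.81 TPM with PDBAG1, again with no overlap. Its log2 fold change was 0.83 (SE 0.05, adjusted p = 8.82e-08 in limma). PFKFB3 was 1.98 ± 0.07 times as abundant as PFKFB4 with vehicle and only 1.15 ± 0.07 times with PDBAG1 (SD, 3 libraries each), although it stayed the higher of the pair in each library. PFKFB3 shares 5082 bases with a long non-coding RNA gene on the opposite strand that had no values in the data.

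PFKFB2, known as the heart isozyme, was at 13.01, 11.56 and 11.07 TPM with vehicle and at 12.90, 13.83 and 14.91 TPM with PDBAG1. The lowest treated library lay within the vehicle range, and the log2 fold change of 0.21 (95% interval 0.03 to 0.38) missed the threshold with a limma adjusted p of 0.0578. The call turned on single libraries. Without vehicle replicate 1 the log2 fold change was 0.27 and past the threshold (adjusted p = 0.0213 in limma), and without PDBAG1 replicate 1 it was 0.26 (adjusted p = 0.0305 in limma). PFKFB2 overlaps YOD1 on the opposite strand by 9132 bases, and YOD1 was at 16.7 ± 1.10 and 17.9 ± 1.40 TPM (SD, 3 libraries each). PFKFB1, the liver isozyme, was at 0.25 TPM or less in every library.

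The PFKFB sum went from 58.5 ± 3.42 to 118 ± 2.10 TPM (SD, 3 libraries each), a log2 difference of 1.02. PFKFB4 supplied 55.3% of the added TPM, PFKFB3 41.4% and PFKFB2 3.35%. The PFKFB4 share went from 26.7% ± 0.44 to 41.2% ± 1.45, that of PFKFB3 went from 53.0% ± 1.05 to 47.1% ± 1.09 and that of PFKFB2 from 20.3% ± 0.65 to 11.7% ± 0.64 (SD, 3 libraries each). None of the 3 shares overlapped between the groups, and each had the smallest exact permutation p possible, 0.1. As parts of the same sum, the 3 shares are not separate results. The PFKFB3 share was thus lower with PDBAG1 while its own level was higher.

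The opposing enzymes and the rest of glycolysis were taken from a list of 30 other pathway genes, of which 19 were expressed well enough to be tested. FBP1, the phosphatase that reverses the PFK1 step in gluconeogenesis, was the only one of the 5 tested upper-pathway genes with an adjusted p under 0.05, and it did not reach the 1.5-fold limit. A count of 1 lower in 5 is near the 15.9% of all genes tested that were lower at that p. The mean of FBP1 fell, from 48.1 ± 1.44 to 36.8 ± 2.16 TPM (SD, 3 libraries each), by a log2 fold change of -0.38 (adjusted p = 0.000164 in limma), with values of 46.59, 49.47 and 48.16 TPM against 35.66, 35.38 and 39.25 TPM. The ratio of PFKP to FBP1 went from 5.06 ± 0.28 to 7.97 ± 0.45 (SD, 3 libraries each; exact permutation p = 0.1, the smallest possible). TIGAR, which dephosphorylates fructose 2,6-bisphosphate, was at 5.66 ± 0.38 and 6.01 ± 0.57 TPM (SD, 3 libraries each; log2 fold change 0.07, adjusted p = 0.567 in limma), and the muscle isozyme FBP2 was at 0.56 TPM or less throughout. For the ADP-dependent glucokinase ADPGK the log2 fold change was -0.11 (adjusted p = 0.194 in limma) and for the glucose 6-phosphatase G6PC3 it was -0.03 (adjusted p = 0.676 in limma).

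Of the 14 tested genes of lower glycolysis, 11 were higher and 1 was lower at an adjusted p under 0.05, against 21.7% and 15.9% of all genes tested, with a median log2 fold change of 0.24. The 3 called at the 1.5-fold limit, against 2.86% of all genes tested, were ALDOC (log2 fold change 1.39), ENO2 (1.12) and PGK1 (0.64), and LDHB was the gene that was lower, at -0.18. For ALDOA and ENO1, the more abundant paralogues of ALDOC and ENO2, the log2 fold changes were 0.41 and 0.20.

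**Figure D3:**
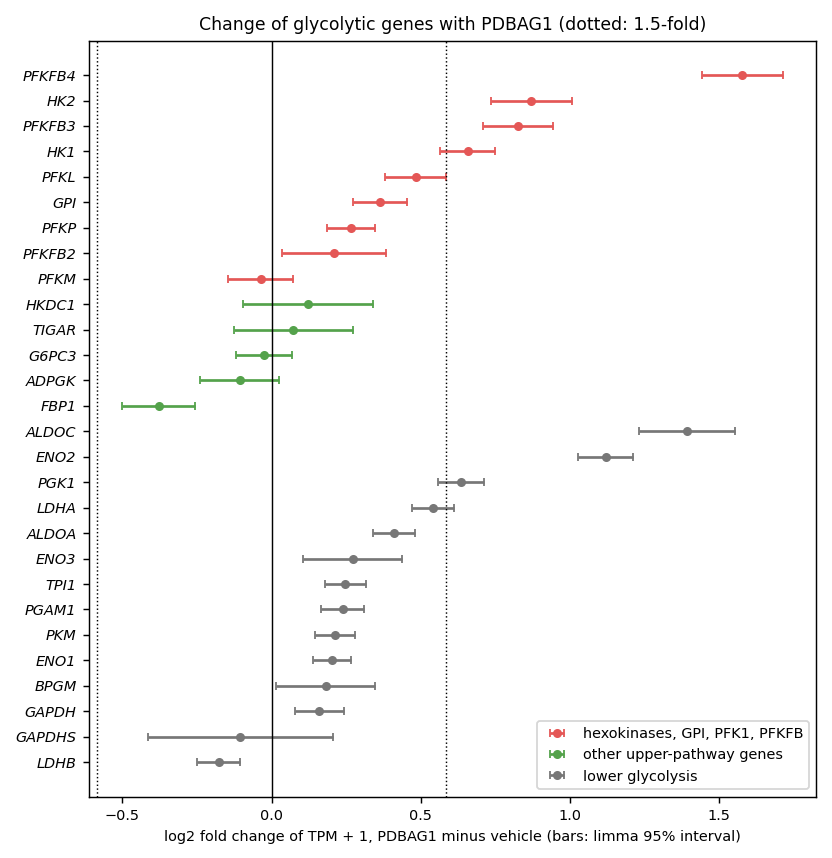
Log2 fold change on the TPM + 1 scale (x axis; points, with limma 95% intervals as bars; PDBAG1 minus vehicle) of the 9 genes and the 19 other pathway genes tested, with dotted lines at 1.5-fold. PFKFB4 lies farthest right at 1.58 and FBP1 farthest left at -0.38.

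Over the 6 libraries, the log2 levels most like that of HK2 by Pearson's r were those of the surface glycoprotein gene CDCP1, of NAMPT, the rate-limiting enzyme of NAD salvage, and of ARHGEF2, all with r of 1.00 when rounded. For PFKL they were CYTH2, C15orf48 and PTGES, the last a prostaglandin E synthase. For PFKFB4 they were PNRC1, the macrophage growth factor gene CSF1 and the laminin gene LAMB3. Such likeness is a description over 6 libraries in 2 groups and is widely shared. In all, 1277 genes had an r over 0.95 with HK2, 1111 with PFKL and 1221 with PFKFB4. The 9 genes lie on 7 chromosomes, and PFKP (3066333 to 3137718), PFKFB3 (6144934 to 6254644) and HK1 (69269984 to 69401884) share chromosome 10 (GRCh38, GENCODE v44). PFKFB4 lies on chromosome 3 (48517684 to 48562015) and HK2 on chromosome 2 (74834127 to 74893359). PFKFB2 lies on chromosome 1 (207034366 to 207081024), PFKM on chromosome 12 (48105139 to 48146404), GPI on chromosome 19 (34359480 to 34402413) and PFKL on chromosome 21 (44300051 to 44327376). HK2 has a pseudogene copy, HK2P1, on chromosome X, which had no values in the data, and how reads that fit both were assigned was not tested.

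The libraries held 12392 to 12611 genes with a TPM of at least 1, and none stood apart from its group. The SD over genes of the log2 difference between a pair of libraries was 0.14 to 0.18 within a group and 0.28 to 0.30 between the groups. The mesenchymal markers VIM and CD44 were high in every library, while CDH1 and PGR were at 0.84 TPM or less and ESR1 at 3.38 TPM or less, as in a mesenchymal hormone receptor-negative line. Both high markers also rose without overlap. VIM went from 4270 ± 87.5 to 5877 ± 103 TPM (SD, 3 libraries each; log2 fold change 0.46, adjusted p = 1.02e-07 in limma). CD44 went from 321 ± 9.24 to 484 ± 19.0 TPM (SD, 3 libraries each; log2 fold change 0.59, adjusted p = 1.15e-07 in limma) and passed the 1.5-fold limit. The 4 measured markers of leukocytes, endothelium, fibroblasts and adipocytes summed to 9.12 to 9.63 TPM with vehicle and 13.5 to 15.6 TPM with PDBAG1. The endothelial marker PECAM1 rose from 3.94 ± 0.15 to 8.64 ± 0.68 TPM (SD, 3 libraries each; log2 fold change 0.96, adjusted p = 2.21e-06 in limma) and passed the 1.5-fold limit. The fibroblast marker COL1A1 was at 3.95 ± 0.06 and 4.64 ± 0.30 TPM (SD, 3 libraries each; adjusted p = 0.121 in limma). The leukocyte marker PTPRC (means 1.08 and 1.04 TPM) and the adipocyte marker ADIPOQ (0.41 and 0.53 TPM) overlapped between the groups. The part of these markers in the results was not tested.

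**Figure D4:**
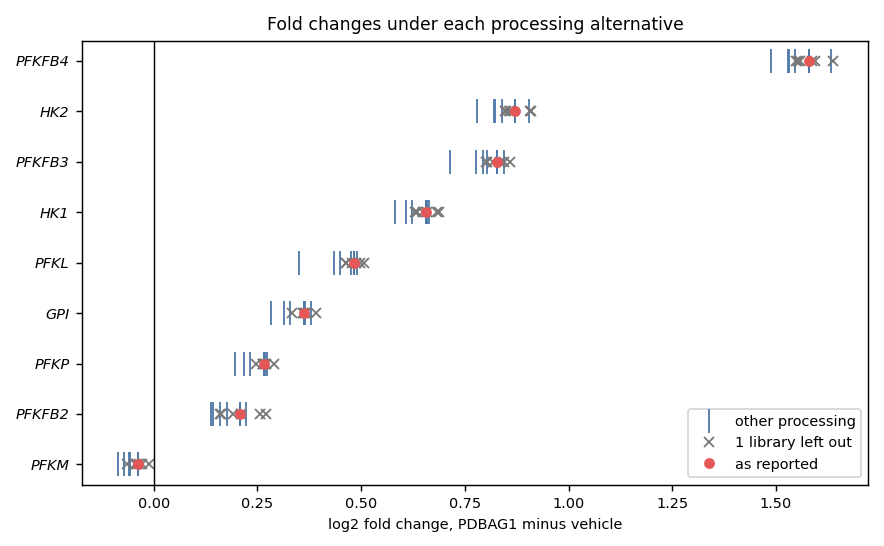
Log2 fold change of each of the 9 genes (x axis) as reported (circles), under 9 other processing choices (bars) and with each of the 6 libraries left out (crosses). HK1, HK2, GPI, PFKL, PFKP, PFKFB3 and PFKFB4 stay above 0 throughout, as does PFKFB2 at 0.14 to 0.27, and PFKM stays between -0.09 and -0.01.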

How the data were processed

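RNA of MDA-MB-231 cells treated with vehicle or PDBAG1 was sequenced by the authors as mRNA libraries on the BGISEQ-500 platform. According to the methods, reads were mapped with HISAT2 to GRCh38.p13 and normalised to FPKM. The submitters' processing notes list HISAT2 2.0.4, Bowtie2 2.2.5, RSEM 1.2.12 and the build GRCh38.p12. The deposited values are TPM with 2 decimals, and each library sums to about the same total. TPM keeps no depth, so the depth per library is unknown, and the error is that between libraries.

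Genes that reached a TPM of 1 in 3 or more libraries (12582) were tested on log2(TPM + 1) with limma 3.58.1 in R 4.3.3 (variance trend, Benjamini-Hochberg adjustment over all genes). Fold changes on this scale understate those of low genes. Limma draws the variance of each gene towards a trend over all genes tested, so its p-values do not rest on the libraries of that gene alone. Without the trend the limma adjusted p was 0.000185 for HK1 and 0.0054 for PFKP. Calls required an adjusted p under 0.05 and a change of 1.5-fold, the study's thresholds. Isozyme shares and family sums were computed from TPM within each library and compared by exact two-sided permutation tests (scipy 1.17.1).

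The members and lists were chosen with earlier results of these data known. The text names every member, FBP1, FBP2, TIGAR, the pathway genes called, and the 3 genes most correlated with the member of largest change in each family. HK3, HKDC1, PFKFB1, ADPGK, G6PC3, LDHB, ALDOA, ENO1 and the measured overlapping genes were added after their values were seen. CD3E, listed as a marker, was not matched, and 1 family gene is not reported here. Positions are those of GENCODE v44, to which 17212 of 17631 genes were matched by Ensembl identifier. Alternatives were other pseudocounts, filters, scalings, fold limits and family definitions, no variance trend, the replicate number as a block, and each library left out in turn. Removal of length and GC trends and median centring were added after the data were seen. The deviations of same-numbered libraries from their group means had correlations of -0.21, 0.01 and -0.08, so the numbers were not treated as pairs.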

Additional observations from a re-analysis of the deposited data

How the results depend on the processing

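Each of the 9 genes kept its direction under the scalings, the other pseudocount, the removal of trends and the omission of single libraries. The other filters, the fit without a variance trend and the replicate block can change only p, not the log2 fold change. Over all 15 alternatives, 131 of the 135 values stayed on the same side of the adjusted p threshold of 0.05. The 4 others were all of PFKFB2, which passed at 0.18 under median-of-ratios scaling, at 0.14 with length and GC trends removed, and without vehicle replicate 1 or PDBAG1 replicate 1. With the replicate block its log2 fold change was 0.21 with a limma adjusted p of 0.118. The number of the 9 genes called stayed at 4, and 363 of all 12582 genes tested were called higher. The labels give the numbers no shared origin, and the block changed no call of the 9 genes. Removing length and GC trends gave the lowest values of 8 genes, such as 1.49 for PFKFB4 and 0.58 for HK1, and left 3 called. Of all 12433 genes tested in that setting, 291 were called higher. At a fold limit of 2 only PFKFB4 remained, 1 gene in place of 4, and the share of all genes at that limit was not counted. With HKDC1 and HK3 in the denominator the HK1 share fell by 1.07 percentage points instead of 1.55. The PFK1 sum had a log2 difference of 0.23 under median-of-ratios scaling. The difference in the PFKP share ranged from -0.32 to 0.13 percentage points with each library left out and changed sign without vehicle replicate 1, PDBAG1 replicate 1 or PDBAG1 replicate 2. The cause was not tested. Tests on counts were not run, since TPM are not counts.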
